A study of Mus musculus with 5 samples.

Results

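The 9 genes described here are inflammatory cytokines of heart myeloid cells and regulators of them. Il1b, Il1a, Il18, Tnf, Il6 and Il10 encode secreted cytokines, Il1rn and Il1r2 encode an antagonist and a decoy receptor of interleukin-1, and Nlrp3 encodes an inflammasome sensor. They were chosen by name, and each symbol matched 1 of the 31053 genes in the count matrices. The cells came from hearts of C57BL/6 mice at 18 months and at 2 months of age, with 1 library per age and no treatment other than ageing, and how many mice went into each is not stated. Hearts were digested with collagenase II and dispase II for 45 minutes at 37 °C, passed through a 30 µm mesh, stained with hashtag antibodies and sorted, and the sorted cells were mixed in set ratios. They were sequenced on the 10x Genomics platform with 3′ chemistry, which counts unique molecular identifiers (UMIs), 1 per captured mRNA molecule.

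Interleukin-1β and interleukin-18 are made as inactive precursors. Bacterial products or tissue damage switch on transcription of Il1b through NF-κB. An inflammasome, such as the one built by NLRP3, activates caspase-1, which cleaves both precursors so that they can act. Interleukin-1α is active without that step, and interleukin-1 receptor antagonist (Il1rn) and the decoy receptor (Il1r2) keep interleukin-1 from its signalling receptor. Tumour necrosis factor and interleukin-6 are further products of activated myeloid cells, and interleukin-10 restrains them. In the heart, resident macrophages are the main myeloid cells, and neutrophils and monocytes enter from the blood.

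After filtering, 7816 cells at 18 months and 10910 cells at 2 months were kept, with medians of 4371 and 8033 UMIs per cell and totals of 53597057 and 102618684 UMIs. The cells were clustered without the 9 genes, and clusters were named from marker genes, so a name means that the cells resembled that type by its markers (neutrophil-like, macrophage-like and so on). The labels call these cells non-cardiomyocytes of the cell type lymphocyte, yet a cardiomyocyte class held 146 cells at 18 months and 687 at 2 months, and neutrophils, macrophages, endothelial cells and fibroblasts were all present. Since cells were sorted and mixed in set ratios, class sizes were not read as tissue composition. The neutrophil class held 907 cells at 18 months and 176 at 2 months, the monocyte class 287 and 46, the macrophage class 621 and 533, and the dendritic cell class 264 and 302. The dendritic cell class was a single cluster led by Retnla and Cd209a. 6 of 32 clusters stayed unnamed, and these held 698 cells at 18 months and 617 at 2 months. Barcode sequences shared by both heart libraries numbered 42, and the counts below were also taken without them. With 1 library per age no test between ages was possible, so no p-value is given. Every interval is a 95% interval that covers counting error only, and a gene was called higher or lower at 18 months when its level differed by at least 1.5-fold and at least 20 UMIs were counted over both libraries.

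On the GRCm38 build (GENCODE M21 annotation), Il1b (chr2:129364570-129371139) and Il1a (chr2:129299610-129309972) lie 54.6 kb apart on the minus strand of chromosome 2, and Il1rn (chr2:24336853-24351494, plus strand) is on the same chromosome. Il1r2 (chr1:40074079-40125231) and Il10 (chr1:131019845-131024974) are on the plus strand of chromosome 1. Il6 (chr5:30013114-30019981), Il18 (chr9:50554827-50581840) and Nlrp3 (chr11:59541568-59566956) are on the plus strand, and Tnf (chr17:35199381-35202007) on the minus strand.

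The promoters of Il1b, Il1a, Il6 and Tnf are shown because each is a textbook target of the same inflammatory transcription factors. Each line is the RefSeq sequence (GRCm38.p6) of the 250 bases before the annotated start, read 5′ to 3′ on the coding strand. Capitals mark matches to the NF-κB letters (GGGA, any 4 bases, then CC), the AP-1 letters TGANTCA or the TATA box letters TATAAA. The windows are chr2:129371140-129371389 (minus strand) for Il1b, chr2:129309973-129310222 (minus strand) for Il1a, chr5:30012864-30013113 (plus strand) for Il6 and chr17:35202008-35202257 (minus strand) for Tnf.
Il1b: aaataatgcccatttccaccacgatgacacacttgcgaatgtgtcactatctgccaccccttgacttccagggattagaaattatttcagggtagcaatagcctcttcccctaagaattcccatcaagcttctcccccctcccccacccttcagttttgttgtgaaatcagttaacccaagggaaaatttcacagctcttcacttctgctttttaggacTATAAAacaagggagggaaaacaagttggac
Il1a: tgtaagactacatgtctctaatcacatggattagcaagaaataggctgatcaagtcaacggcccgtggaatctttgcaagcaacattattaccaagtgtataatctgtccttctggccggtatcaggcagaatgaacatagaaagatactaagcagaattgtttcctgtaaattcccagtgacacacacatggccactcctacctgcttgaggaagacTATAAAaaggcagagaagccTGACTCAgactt
Il6: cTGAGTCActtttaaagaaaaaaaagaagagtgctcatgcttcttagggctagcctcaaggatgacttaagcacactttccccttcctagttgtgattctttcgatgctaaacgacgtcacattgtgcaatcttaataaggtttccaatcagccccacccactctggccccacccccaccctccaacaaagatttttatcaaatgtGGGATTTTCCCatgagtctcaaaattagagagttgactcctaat
Tnf: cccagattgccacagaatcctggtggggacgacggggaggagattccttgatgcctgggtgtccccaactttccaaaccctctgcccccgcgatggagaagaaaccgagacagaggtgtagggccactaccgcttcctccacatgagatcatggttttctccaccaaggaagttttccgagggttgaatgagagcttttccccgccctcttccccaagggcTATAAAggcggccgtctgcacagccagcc
Il1b held TATAAA 31 bases before the start, Tnf held it 29 bases before, and Il1a held it 32 bases before together with TGACTCA at 12 bases before. Il6 held no TATAAA; it held GGGATTTTCC at 44 bases before the start, overlapped by a reverse-strand match that begins 1 base further in, and TGAGTCA at 249 bases before. Among 32851 mouse windows of this length, searched on both strands, 17.6% held the NF-κB letters, 6.75% the AP-1 letters and 12.4% the TATA box letters. Windows existed for 8 of the 9 genes, and all these matches describe letters, not binding.

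Il1b, the gene of interleukin-1β, was mainly a neutrophil transcript at 18 months, while at 2 months its UMIs were split between neutrophils and dendritic cells. Neutrophils held 65.8% of all Il1b UMIs at 18 months and 28.6% at 2 months. Dendritic cells held 3.05% at 18 months and 32.2% at 2 months, and macrophages held 10.5% and 13.1%. CPM is the gene's UMIs scaled to the total UMIs of the cells concerned. Over all cells Il1b stood at 1519 CPM in the 18-month library and 306 CPM in the 2-month library. The class sizes moved with that gap: combining 18-month levels of each class with the class shares of the 2-month library gave 399 CPM, and combining 2-month levels with 18-month shares gave 1166 CPM. Unnamed clusters held 13.9% of Il1b UMIs at 18 months and 18.8% at 2 months. The levels inside each class are therefore given below.

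**Figure D1:**
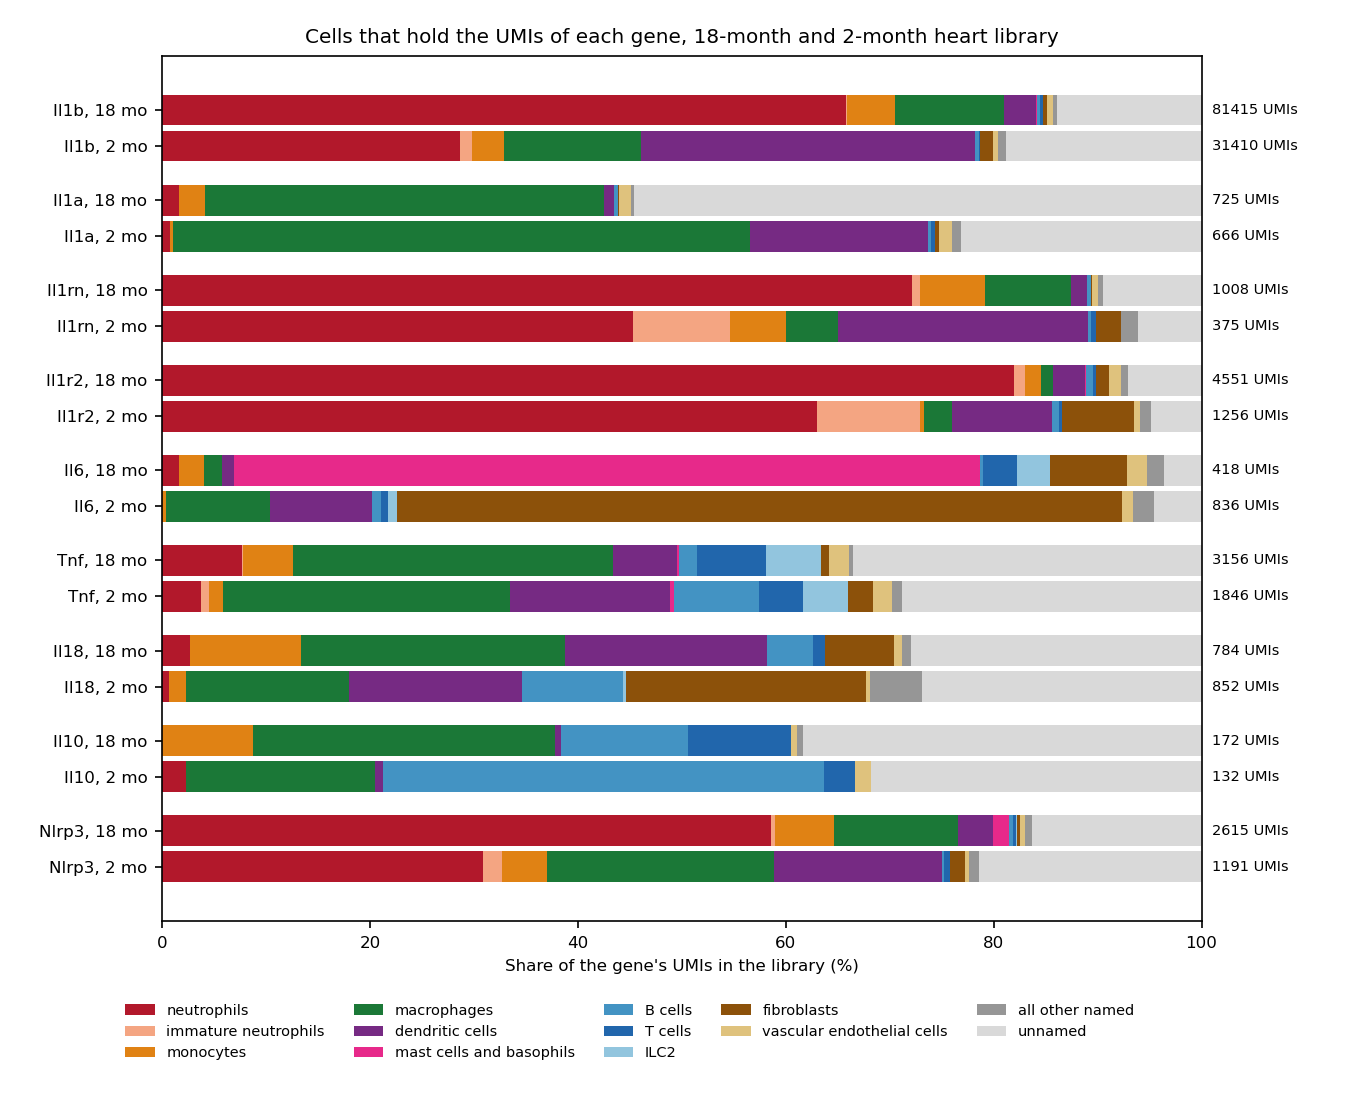
Share of each gene's UMIs (horizontal axis, percent of the gene's UMIs in a library) held by each cell class, with the 18-month library above the 2-month library for each gene. Neutrophils held 65.8% of Il1b, 72.1% of Il1rn and 81.9% of Il1r2 UMIs at 18 months, and 28.6%, 45.3% and 63.0% at 2 months.

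Within neutrophils, Il1b reached 16661 CPM at 18 months and 12165 CPM at 2 months, by far its highest level of any class in both libraries. The log2 ratio, 18 over 2 months, was 0.45 (0.42 to 0.49), short of 1.5-fold. Hashtags 11 and 12 of the 18-month library had 15448 and 17947 CPM, both above hashtags 09 and 10 of the 2-month library with 10673 and 14643 CPM. Nearly every neutrophil carried the transcript: 99.7% of cells at 18 months and 98.3% at 2 months had at least 1 UMI, with medians of 51 and 40 Il1b UMIs per cell at a median depth of 3425 and 3762 UMIs. Neutrophils of the 2-month library carried more RNA of other cells. Fibroblast markers summed to 797.5 CPM in neutrophils at 18 months and 2309.8 CPM at 2 months with all 8 markers present in both, and the estimated share of free RNA was 6.10% and 16.3%. Free RNA is mRNA released from damaged cells and captured in every droplet. With TMM scaling, which moved every neutrophil ratio up by 0.29, the log2 ratio was 0.74 and so past 1.5-fold. It stayed above 0 in each alternative computed, between 0.08 and 1.24. The free RNA alternative took UMIs from the gene and left the class total unchanged. How the larger share of free RNA at 2 months moved the neutrophil total, and with it these ratios, was not tested.

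In macrophages Il1b was higher at 18 months, with 1459 CPM against 892 CPM at 2 months, a log2 ratio of 0.71 (0.66 to 0.76). Positive cells made up 64.7% of macrophages at 18 months and 46.3% at 2 months. At an equal depth of 1000 UMIs per cell the shares were 37.5% and 24.5%. The transcript was unevenly spread: the median macrophage held 1 Il1b UMI at 18 months and 0 at 2 months, while the 90th percentile was 41 and 17 UMIs and the richest cell held 335 and 288. In vascular endothelial cells, which should lack the gene, 14.4% of cells at 18 months and 5.26% at 2 months had an Il1b UMI at median depths of 2304 and 2266 UMIs. Free RNA alone was estimated to give 132% and 112% of the endothelial Il1b count, against 5.11% and 1.91% of the macrophage count. Neutrophil markers also moved with age in macrophages, summing to 444.2 CPM over 7 markers at 18 months (none at 0) and 97.8 CPM at 2 months (1 at 0). At the proportion of Il1b to these markers in neutrophils, they would carry 43.7 of the 1459 CPM at 18 months and 8.78 of the 892 CPM at 2 months. Hashtags 11 and 12 at 18 months (1362 and 1544 CPM) lay above hashtags 09 and 10 at 2 months (1238 and 794 CPM), and the macrophage ratio stayed above 0 in each alternative, from 0.14 to 1.08.

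**Figure D2:**
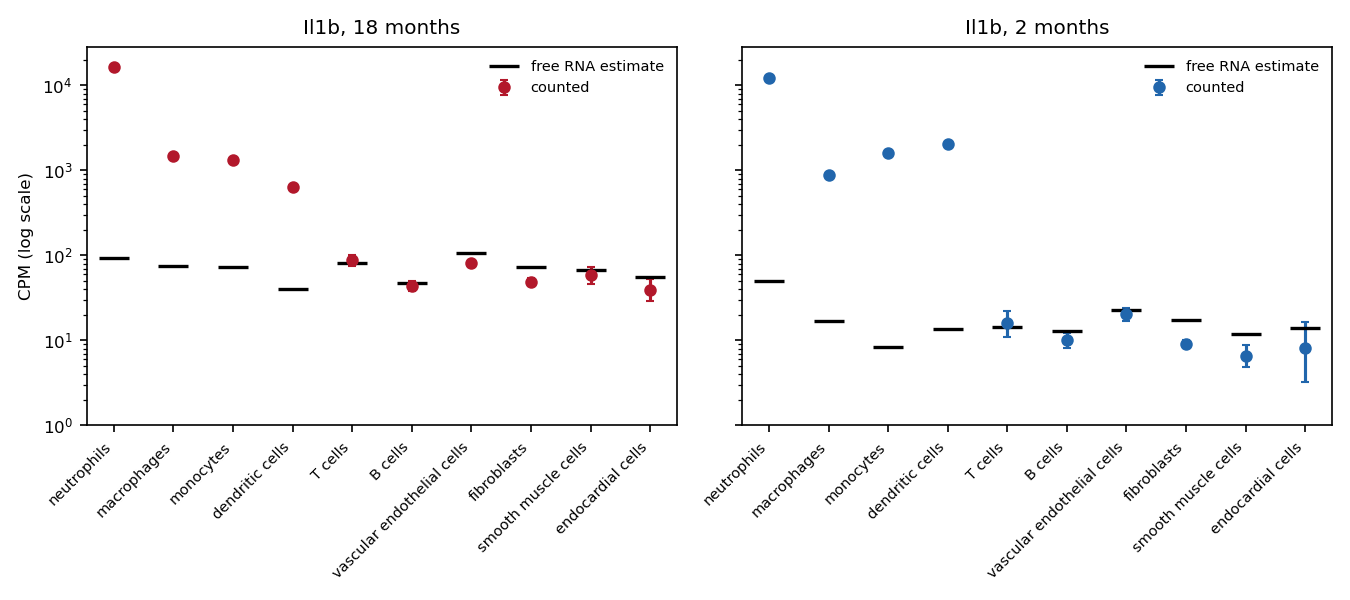
Level of Il1b by cell class in the 18-month library (left) and the 2-month library (right), in CPM on a log axis; points are counted levels with 95% counting intervals and dashes are the level that free RNA alone would give. Neutrophils, macrophages, monocytes and dendritic cells stand well above the dash in both libraries, whereas endothelial cells, fibroblasts, B cells and T cells lie near it.

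The macrophage class split into 2 main parts when clustered more finely, and both had more Il1b at 18 months. Macrophages led by Ms4a7, Cd14 and Cxcl2 (412 cells at 18 months, 312 at 2 months) stood at 2026 CPM at 18 months and 1483 CPM at 2 months. That gap was short of 1.5-fold. Macrophages led by Folr2, Lyve1, Cd163 and Vsig4 (205 and 202 cells), markers of long-lived resident macrophages, stood at 418 CPM and 260 CPM (259.6). The lower level of Il1b in the Lyve1 group was seen in both libraries. Free RNA was estimated for the whole class and not for its parts, and it would weigh more on the lower levels of the Lyve1 group. How far the shares of the 2 parts moved the ratio of the whole class was not tested.

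In dendritic cells Il1b was lower at 18 months. It stood at 639 CPM at 18 months and 2042 CPM at 2 months, a log2 ratio of -1.68 (-1.74 to -1.61). The share of positive cells was 57.6% at 18 months and 61.6% at 2 months at median depths of 15078 and 16610 UMIs, and 21.9% and 41.4% at 1000 UMIs per cell. Markers of other cells moved too: macrophage markers (10) summed to 2055 CPM in dendritic cells at 18 months (1 of them at 0) and 1322 CPM at 2 months (none at 0), and fibroblast markers (8, with 1 at 0 in each library) to 324 and 926 CPM. Their part in the result was not tested. The amount per cell also differed: the 90th percentile of dendritic cells was 19 Il1b UMIs at 18 months and 108 at 2 months. This decrease came with 1 of the 2 hashtags of the 2-month library. Dendritic cells of hashtags 11 and 12 at 18 months had 563 and 706 CPM, and those of hashtags 09 and 10 at 2 months had 2522 and 528 CPM. Set against hashtag 10 alone, the log2 ratio was 0.09 for hashtag 11 and 0.42 for hashtag 12, so the direction turned. What a hashtag marks is not stated, and each held cells with Xist and cells with Y-linked transcripts. Among dendritic cells with either kind of transcript alone, Xist cells made up 34.8% in hashtag 11 and 54.4% in hashtag 12, and 10.7% in hashtag 09 and 41.0% in hashtag 10. The ratio was -0.45 in Xist cells and -1.90 in cells with Y-linked transcripts, and the part of sex in this result was not tested. Counted the same way over all hashtags, Xist cells made up 17.8% of neutrophils at 18 months and 55.0% at 2 months. The shares were 28.6% and 52.5% in monocytes and 50.7% and 40.1% in macrophages. The part of sex in the ratios of those classes was not tested either.

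**Figure D3:**
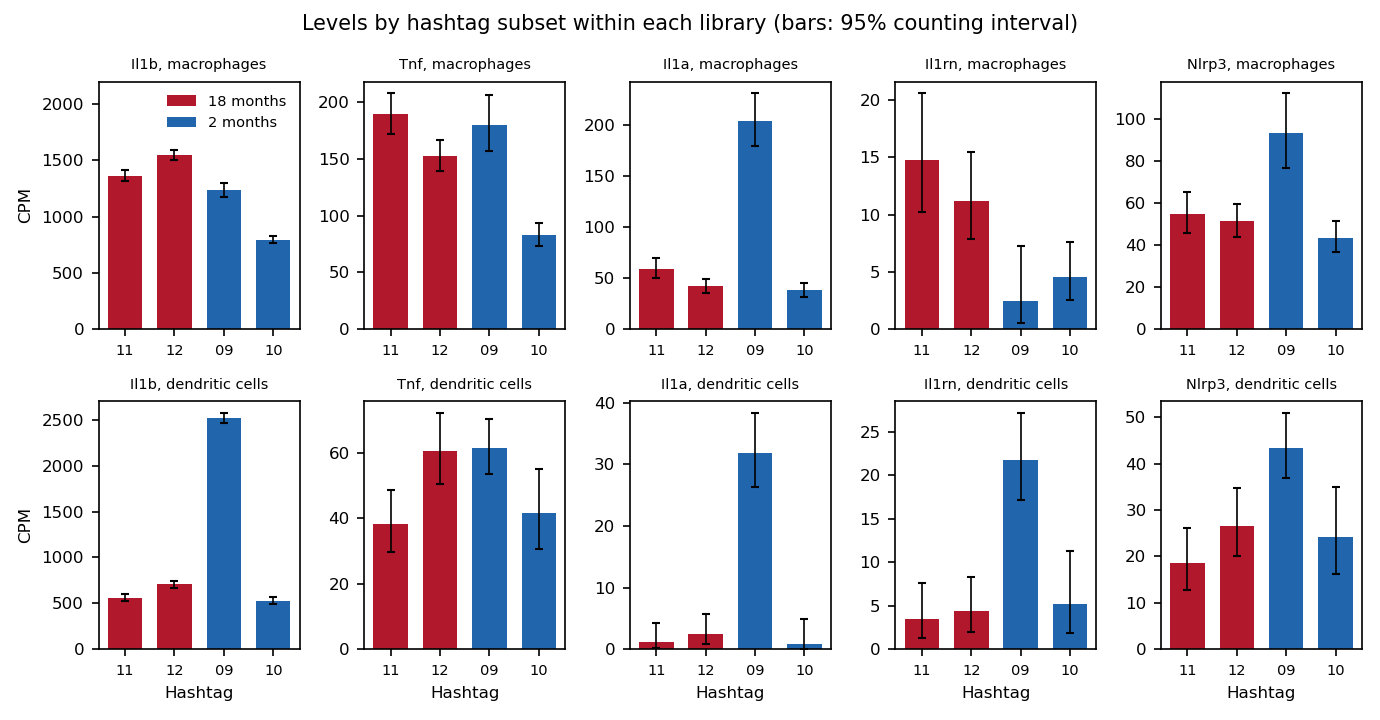
Level (CPM, linear axis from 0) of selected genes in macrophages and dendritic cells by hashtag, with hashtags 11 and 12 of the 18-month library left of hashtags 09 and 10 of the 2-month library; bars show the pooled level and whiskers 95% counting intervals. In dendritic cells the Il1b level of hashtag 09 (2522 CPM) stands above the other hashtags, which lie between 528 and 706 CPM.

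Monocytes held Il1b at 1316 CPM at 18 months and 1612 CPM at 2 months, a log2 ratio of -0.29 (-0.39 to -0.19), with 74.9% and 60.9% of cells positive at median depths of 10429 and 13044 UMIs, and 35.0% and 37.0% at 1000 UMIs per cell. The 2-month monocytes were only 46 cells, and the ratio was 0.30 without the 5 richest cells of each library and 0.71 with coarser clusters. Monocytes led by Chil3 and Ly6c2, the classical type, had 1339 CPM at 18 months and 1586 CPM at 2 months. Monocytes led by Treml4 and Ear2, the patrolling type, had 1035 CPM in 128 cells at 18 months, against 633 CPM in 8 cells at 2 months. An unnamed cluster of 37 cells, all from the 18-month library, carried neutrophil and monocyte markers together and had 6678 CPM of Il1b.

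Il1a, the gene of interleukin-1α, lay in macrophages and in unnamed clusters, and at 2 months also in a few dendritic cells. Macrophages had 47.6 CPM at 18 months and 80.1 CPM at 2 months, a log2 ratio of -0.75 (-0.98 to -0.52), although the shares of positive cells were 9.18% and 9.19%, next to 0.351% and 0.301% of endothelial cells. The 5 richest cells held 40.3% of the macrophage UMIs at 18 months and 55.4% at 2 months, and without them the ratio was -0.34. By hashtag the levels were 59.4 and 42.0 CPM at 18 months, and 204 and 38.3 CPM at 2 months for hashtags 09 and 10, so the 2 age groups overlapped and the direction turned against hashtag 10 (0.63 and 0.13). The Ms4a7 group held most of it, at 71.4 CPM at 18 months and 125.7 CPM at 2 months. In dendritic cells Il1a had 1.80 CPM at 18 months and 23.0 CPM at 2 months (7 and 114 UMIs), with 87.7% of the 2-month UMIs in 5 cells. Monocytes had 18 Il1a UMIs at 18 months and 2 at 2 months, 6.31 and 3.27 CPM, which met the fold but with an interval of the log2 ratio from -1.12 to 4.10. Unnamed clusters held 54.6% of Il1a UMIs at 18 months and 23.1% at 2 months; among them a cluster with both macrophage and B cell markers, at a median of 17235 UMIs per cell, had 44.1 CPM and 6.77 CPM.

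Il1rn, which encodes the interleukin-1 receptor antagonist, had the same main source as Il1b at 18 months. Neutrophils held 72.1% of its UMIs at 18 months and 45.3% at 2 months. Its level there was 226 CPM at 18 months and 230.0 CPM at 2 months, a log2 ratio of -0.03 (-0.27 to 0.22), with 48.7% and 51.7% of cells positive, next to 0.172% and 0.281% of fibroblasts at median depths of 11773 and 13044 UMIs. In macrophages Il1rn was higher at 18 months, at 14.2 CPM against 4.11 CPM (83 and 19 UMIs), a log2 ratio of 1.79 (1.06 to 2.59), and positive cells made up 7.89% and 2.25%. Both hashtags at 18 months (14.7 and 11.2 CPM) lay above both at 2 months (2.50 and 4.60 CPM, from 3 and 15 UMIs). The neutrophil markers found in macrophages would carry 0.593 and 0.166 CPM of these levels, and the ratio stayed positive in each alternative, from 1.28 to 3.29. In dendritic cells Il1rn was lower, at 4.12 CPM at 18 months and 18.2 CPM at 2 months, a log2 ratio of -2.14 (-3.01 to -1.37). Dendritic cells of hashtag 09 again stood highest with 21.7 CPM, next to 3.48 and 4.36 CPM for hashtags 11 and 12 and 5.19 CPM for hashtag 10. Monocytes had 22.1 and 32.7 CPM, within the fold.

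Il1r2, the decoy receptor that binds interleukin-1 without signalling, had the largest neutrophil share of the 9 genes in both libraries, 81.9% of its UMIs at 18 months and 63.0% at 2 months. Neutrophils had 1159 CPM at 18 months and 1070.3 CPM at 2 months, a log2 ratio of 0.12 (0.00 to 0.23), and 86.5% and 90.9% of them were positive, next to 2.15% and 0.301% of endothelial cells. Dendritic cells had 35.8 and 24.3 CPM, within the fold. Monocytes had 24.5 CPM at 18 months and 8.18 CPM at 2 months, a log2 ratio of 1.58 (0.29 to 3.25) that rested on 70 and 5 UMIs. The neutrophil markers in monocytes would carry 13.1% of the 18-month and 29.5% of the 2-month level. In macrophages (9.42 and 7.36 CPM) the free RNA estimate came to 44.2% of the count at 18 months and 9.25% at 2 months.

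Nlrp3, the sensor that assembles the inflammasome, had the same main source as Il1b at 18 months. Neutrophils held 58.6% of its UMIs at 18 months and 30.9% at 2 months, at 476 and 498 CPM, a log2 ratio of -0.06 (-0.23 to 0.10). Macrophages had 53.3 CPM at 18 months and 56.3 CPM at 2 months (log2 ratio -0.08, -0.32 to 0.16). Dendritic cells had 22.9 and 39.0 CPM, a log2 ratio of -0.77 (-1.15 to -0.40), and monocytes 52.6 and 83.5 CPM, a log2 ratio of -0.67 (-1.13 to -0.18). Both decreases turned in an alternative: the dendritic cell ratio was 0.14 for hashtag 12 against hashtag 10, and the monocyte ratio was 0.10 without the 5 richest cells. Mast cells and basophils had 298 CPM from 40 UMIs at 18 months, against no UMI in 6 cells at 2 months. That level was 1.80-fold what 3 counts would give in the 2-month class, a set floor and not a lower bound.

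Neutrophils therefore carried Il1b, its antagonist, its decoy receptor and this sensor together in both libraries, and none of the 6 genes with at least 20 UMIs in neutrophils met the 1.5-fold rule in either direction. Among all 7111 genes with as many UMIs in neutrophils, 6.92% were called higher and 22.7% lower.

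**Figure D4:**
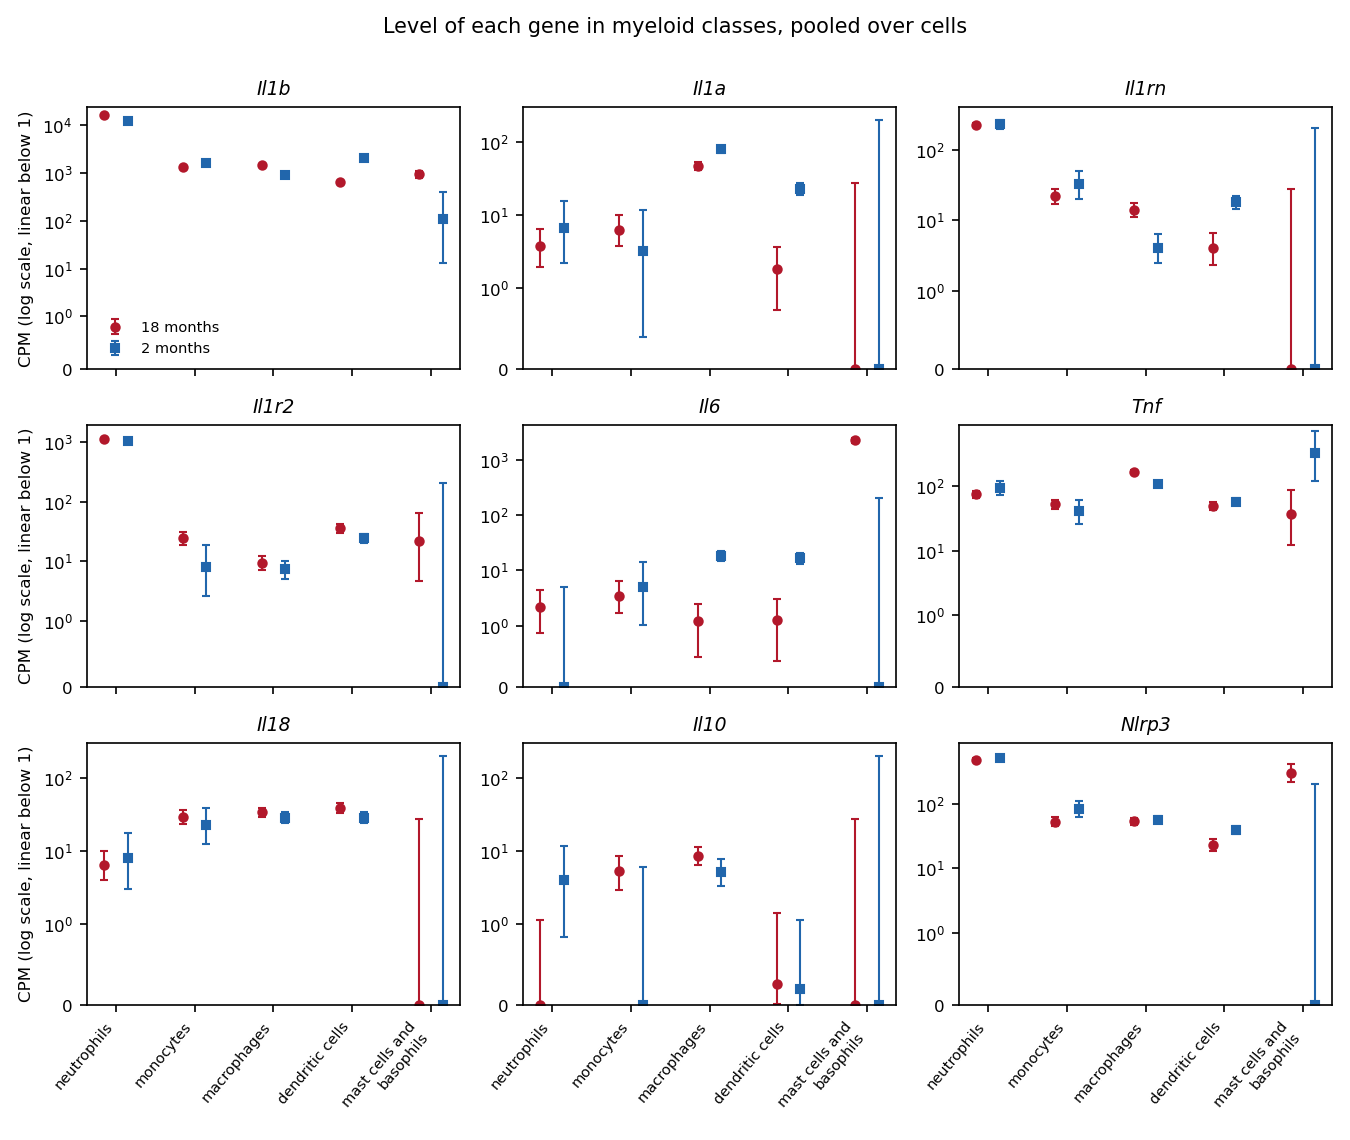
Pooled level of each of the 9 genes in myeloid classes (CPM, log axis that is linear below 1), with the 18-month library left of the 2-month library in each pair and whiskers for 95% counting intervals. Neutrophils stand highest for Il1b, Il1rn, Il1r2 and Nlrp3 in both libraries, macrophages for Il1a, and mast cells and basophils of the 18-month library for Il6.

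Tnf, which encodes tumour necrosis factor, had macrophages as its largest named source, with 30.8% of its UMIs at 18 months and 27.6% at 2 months. The level in macrophages was 166 CPM at 18 months and 110.2 CPM at 2 months, a log2 ratio of 0.60 (0.44 to 0.75), only just past 1.5-fold. Positive cells were 34.8% and 23.8%, and 9.90% and 8.73% at 1000 UMIs per cell, next to 2.46% and 1.24% of endothelial cells before thinning. By hashtag the levels were 189 and 152 CPM at 18 months, against 180.0 and 82.7 CPM at 2 months, so the groups overlapped, and the ratio was -0.24 for hashtag 12 against hashtag 09. It was 0.02 after thinning to 1000 UMIs and 0.51 without a small macrophage cluster led by Alox15 and Saa3. Neutrophils (75.2 and 94.7 CPM), monocytes (52.9 and 40.9 CPM) and dendritic cells (50.2 and 57.6 CPM) all stayed within the fold. Tnf was also a lymphoid transcript. Group 2 innate lymphoid cells had 203 CPM at 18 months and 136 CPM at 2 months, and T cells had 91.3 and 37.1 CPM, a log2 ratio of 1.30 (0.91 to 1.69). In T cells both hashtags of 18 months (113.6 and 76.5 CPM) lay above those of 2 months (39.4 and 29.6 CPM), and among 9394 genes measured there 11.7% were called higher.

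Il6 UMIs lay mostly in mast cells and basophils at 18 months and in fibroblasts at 2 months, with few in neutrophils, monocytes, macrophages and dendritic cells at 18 months. Over all cells it stood at 7.80 CPM at 18 months and 8.15 CPM at 2 months. At 18 months a class of 33 mast cells and basophils held 71.8% of the Il6 UMIs, with 300 UMIs, 2237 CPM and 69.7% of cells positive. The 5 richest cells held 76.7% of these, and the level was 2224 CPM in hashtag 11 and 2255 CPM in hashtag 12. The 2-month library had only 6 such cells with no Il6 UMI, so the ages cannot be compared in this class. The 18-month level was 13.5-fold what 3 counts would give there, a set floor and not a lower bound. Fibroblasts held 7.42% of Il6 UMIs at 18 months and 69.7% at 2 months. Their level was 4.47 CPM at 18 months and 13.5 CPM at 2 months, a log2 ratio of -1.59 (-2.16 to -1.07), and 6.2% of the 14221 genes measured in fibroblasts were called lower. A fibroblast cluster led by Ccl11, Has1 and Tnfaip6, with 21 cells at 18 months and 175 at 2 months, had 31.8 and 120.4 CPM. The fibroblast direction turned with a filter of at most 8% mitochondrial UMIs and 15000 UMIs per cell (0.26) and in cells with Xist (0.30).

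In macrophages Il6 had 7 UMIs at 18 months and 84 at 2 months, 1.20 and 18.2 CPM, a log2 ratio of -3.92 (-5.28 to -2.82). Of the 2-month UMIs, 75 lay in 19 cells led by Alox15 and Saa3, a cluster with 179.8 CPM at 2 months and only 1 cell at 18 months. Without them the ratio was -2.05, and hashtag 10 had 0.613 CPM where hashtag 09 had 68.3. In dendritic cells Il6 was lower at 18 months, at 1.29 CPM against 16.6 CPM (5 and 82 UMIs), a log2 ratio of -3.69 (-5.35 to -2.41). This decrease kept its sign in each alternative that gave a value, between -4.39 and -2.37, both hashtags of 2 months included.

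Il18, whose product needs the inflammasome like interleukin-1β, stayed within 1.5-fold in every myeloid class measured. It was spread over macrophages (34.1 CPM at 18 months and 28.8 CPM at 2 months), dendritic cells (39.1 and 28.7 CPM) and monocytes (29.4 and 22.9 CPM). The log2 ratios were 0.24 (-0.08 to 0.57), 0.45 (0.11 to 0.79) and 0.36 (-0.46 to 1.29). These 3 levels cannot be ranked at this depth, since their intervals overlapped in each library. Fibroblasts held 6.63% of Il18 UMIs at 18 months and 23.1% at 2 months, at 7.50 and 4.55 CPM, a log2 ratio of 0.72 (0.25 to 1.17) where 10.4% of fibroblast genes were called higher.

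Il10, the gene of the restraining cytokine, was rare: macrophages had 50 UMIs at 18 months and 24 at 2 months, 8.56 and 5.20 CPM, a log2 ratio of 0.72 (-0.01 to 1.49) that met the fold with an interval reaching 0. The 5 richest cells held 84.0% and 95.8% of those, so the level describes a handful of cells, and the ratio was -3.75 for hashtag 11 against hashtag 09. Within macrophages it lay in the Lyve1 group, at 25.9 CPM at 18 months and 11.0 CPM at 2 months. B cells were another source, with 12.2% of Il10 UMIs at 18 months and 42.4% at 2 months, at 4.24 and 5.36 CPM.

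Counted over the 4 myeloid classes, 30 of 36 pairs of a gene and a class had at least 20 UMIs, of which 6 were higher at 18 months, 8 lower and 16 within 1.5-fold. Macrophages had 4 of 9 genes higher and 2 lower, where 6.97% of 11067 measured genes were higher and 6.27% lower. Dendritic cells had 0 of 8 higher and 5 lower, where 8.94% of 10458 were higher and 10.2% lower. Monocytes had 2 of 7 higher and 1 lower, where 14.5% of 8354 were higher and 10.5% lower. The macrophage genes that were higher were Il1b, Il1rn, Tnf and Il10, and the lower ones Il1a and Il6. The 5 lower in dendritic cells were Il1b, Il1a, Il1rn, Il6 and Nlrp3. Against hashtag 10 alone, the number of lower pairs was 4 for hashtag 11 and 3 for hashtag 12.

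**Figure D5:**
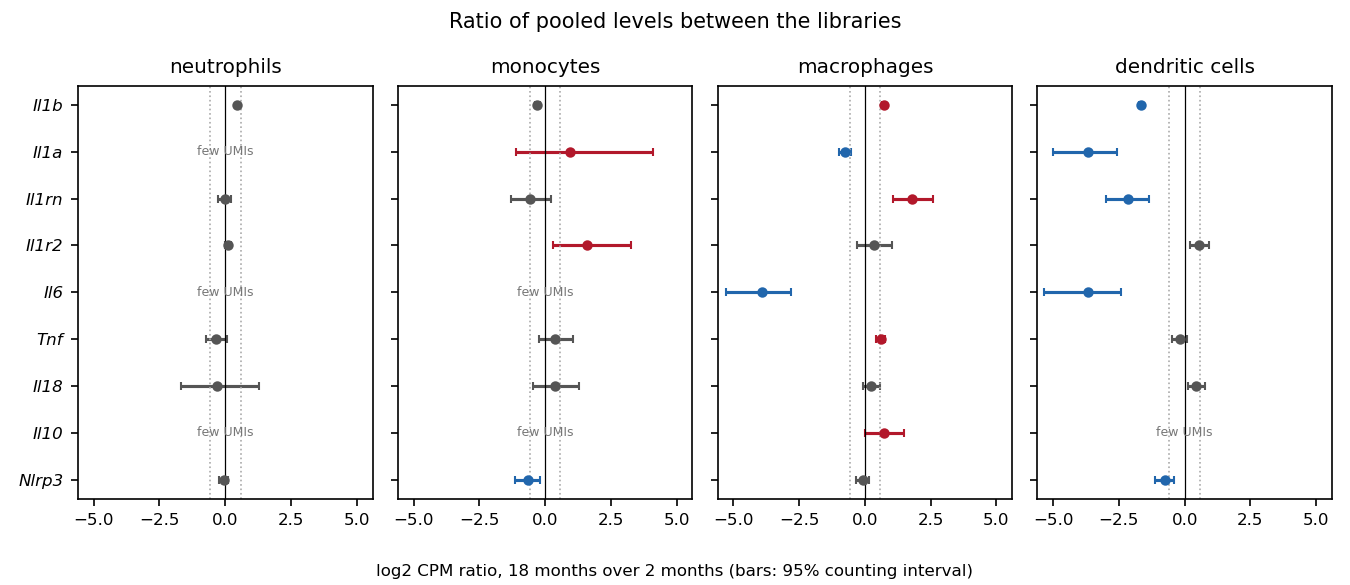
Log2 ratio of the pooled level, 18 months over 2 months, for each gene in neutrophils, monocytes, macrophages and dendritic cells, with 95% counting intervals; dotted lines mark 1.5-fold, and red and blue points the genes called higher and lower. Neutrophil ratios lie between the dotted lines, macrophage Il1b, Il1rn and Tnf lie to the right of 0, and 5 dendritic cell ratios lie at or below -0.77.

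The NF-κB list holds 26 target and feedback genes, such as Nfkbia, Tnfaip3 and Cxcl2. Counts of this list and the lists below stand beside these shares of all genes measured. Neutrophils had 6.92% called higher and 22.7% lower, and monocytes 14.5% and 10.5%. Macrophages had 6.97% and 6.27%, and dendritic cells 8.94% and 10.2%. Such shares were not counted for single hashtags or with TMM scaling. In dendritic cells 15 of 25 measured genes of the list were lower and 1 was higher. Their median log2 ratio was -0.89, against 0.01 for all genes measured there. Ptgs2, which makes prostaglandin precursors, had 30.4 CPM at 18 months and 145 CPM at 2 months (log2 ratio -2.25, -2.55 to -1.97), and the neutrophil attractant Cxcl1 had a log2 ratio of -2.07. Ccl3, a monocyte attractant, was the exception with 131 and 53.2 CPM (1.30, 1.08 to 1.52). By hashtag the median was -1.26 and -1.02 against hashtag 09, and 0.11 and 0.14 against hashtag 10. In macrophages 5 of 26 were lower and none higher, with a median of 0.02. By hashtag, 15 of 26 were lower for both hashtags 11 and 12 against hashtag 09 (medians -0.69 and -0.80), and 11 of 25 were higher and 0 lower for both against hashtag 10 (median 0.54 for each). Clec4e, a receptor for damaged cells and mycobacteria, was among the lower ones (15.4 and 56.7 CPM; -1.88). Neutrophils had 3 of 26 higher and 8 lower, a median of -0.27 next to -0.15 for all genes (5 and 2 with TMM scaling); Cxcl2 was among the higher ones, at 2948 CPM at 18 months and 1825 CPM at 2 months. Monocytes had 2 of 25 higher and 8 lower, with Ccl4 at 107 and 445 CPM and Cxcl1 at 33.7 and 3.27 CPM.

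The inflammasome list, which holds the adaptor Pycard, caspase-1 (Casp1) and gasdermin D, had 0 of 12 genes past the fold in macrophages, with a median log2 ratio of -0.03. It had 1 of 10 higher and 0 lower in neutrophils (median -0.10), 1 of 13 higher and 0 lower in monocytes (-0.18), and 1 higher and 2 lower of 13 in dendritic cells (0.14). The list of interleukin-1 and interleukin-18 receptors and adaptors had 2 of 11 higher and 0 lower in macrophages (0.04). These were Il18bp, which traps interleukin-18, at 8.05 CPM at 18 months and 4.33 CPM at 2 months, and the receptor chain Il18r1 at 7.02 and 3.46 CPM. It had 3 higher and 2 lower of 13 in dendritic cells (0.11), 1 and 1 of 11 in neutrophils (-0.11), and 1 and 1 of 7 in monocytes (0.10). The adaptor Traf6, which carries the signal of the interleukin-1 receptor to NF-κB, was among the lower ones in dendritic cells, at 7.21 and 15.2 CPM.

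Receptors and signalling genes of interleukin-6, tumour necrosis factor and interleukin-10 had 0 of 14 past the fold in macrophages (median -0.05), 3 lower of 14 in dendritic cells (-0.20), 1 higher of 14 in monocytes (0.09), and 1 higher and 1 lower of 14 in neutrophils (0.02). The gene lower in dendritic cells that many cytokines share as a receptor was Il6st, at 33.5 CPM at 18 months and 58.6 CPM at 2 months. Toll-like receptors and adaptors, which sense microbial products, had 2 higher of 12 in macrophages (0.03), 4 higher and 2 lower of 10 in monocytes (0.19), 2 higher and 4 lower of 11 in dendritic cells (-0.39), and 1 and 1 of 9 in neutrophils (0.22). The co-receptor for bacterial lipopolysaccharide, Cd14, was lower in dendritic cells, at 107 and 239 CPM (log2 ratio -1.16). Other cytokines had 1 higher and 2 lower of 11 in macrophages (-0.09), 3 and 2 of 11 in dendritic cells (-0.05), 2 and 3 of 10 in monocytes (0.03) and 1 and 0 of 9 in neutrophils (0.11). Among them the B cell survival factor Tnfsf13b was higher in macrophages (90.1 and 38.3 CPM, log2 ratio 1.23) and in dendritic cells (15.5 and 5.26 CPM, 1.56), and oncostatin M (Osm), a relative of interleukin-6, was higher in neutrophils (349 and 200.3 CPM, 0.80). With TMM scaling the neutrophil counts were 3 higher and 0 lower in the inflammasome list (median 0.19), 2 and 0 in the interleukin-1 and interleukin-18 list (0.18), 3 and 1 in the Toll-like receptor list (0.51) and 2 and 0 among other cytokines (0.40). Without TMM scaling, the medians over all genes measured were -0.15 in neutrophils, 0.00 in monocytes and macrophages and 0.01 in dendritic cells. TMM scaling moves the neutrophil median over all genes up by the same 0.29 as the list medians. The scaled list medians are therefore not to be set against -0.15.

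Genes that tissue digestion is known to induce, such as Fos, Jun and heat shock genes, were counted in the same way because the same treatment can induce cytokine mRNA. In macrophages 2 of 17 were higher, Dusp1 (1216 and 734 CPM) and Fosb (191 and 123 CPM), and 3 were lower, among them Dnajb1 (98.5 and 208 CPM). In neutrophils 1 was higher, Fos (2851 and 1859 CPM), and 5 lower, with Hspa1a at 93.0 and 207 CPM. Of all genes measured in neutrophils 22.7% were lower. Monocytes had 1 higher and 3 lower, and dendritic cells 0 higher and 1 lower. The medians were -0.20 in macrophages, -0.12 in neutrophils and -0.19 in both monocytes and dendritic cells. In macrophages the count depended on the hashtag: 8 and 10 of 17 were lower and 0 higher for hashtags 11 and 12 against hashtag 09 (medians -0.56 and -0.83), and 2 were higher and 2 lower for each against hashtag 10 (0.18 and -0.03). The part of this response in the cytokine levels was not tested.

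The genes whose pattern over 27 class and library pairs was most like that of each member, by Pearson's r of log2(CPM + 1) over 11947 genes, followed the source cells. Il1b was most like Cd300ld (r = 0.969), Nlrp3 (0.963) and Ccl6 (0.959), Il1rn was most like Nlrp3 (0.939), and Il1r2 like Gm5150 (0.913), with the neutrophil growth factor receptor Csf3r at 0.908. Il1a was most like Nectin4 (0.844), Il18 like Clec4a3 (0.882) and Tnf like Ebi3 (0.867). The best match was weaker for Il10 (Nlrc4, 0.785) and weakest for Il6 (Lif, 0.645). Pairs with fewer than 50 cells were left out. Mast cells and basophils (33 cells at 18 months, 6 at 2 months) were therefore not among the points. The Il6 match was thus made without its main source at 18 months. These points share libraries and depth, so the values are descriptions.

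Other genes overlap Il1b, Il1a, Il1r2 and Il18. Gm37347 overlaps Il1r2 on the same strand, so strand cannot tell their reads apart. The other overlapping genes lie on the opposite strand. These are Il1bos for Il1b, Gm14023 for Il1a, Gm16894 for Il1r2, and Bco2 and Tex12 for Il18. Their reads would be mixed only if counting ignored strand, and the labels do not state whether it used strand.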

How the data were processed

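The deposited values are raw UMI counts per gene and cell barcode, made with Cell Ranger 3.1.0 per the file headers, with mm10 and GRCm38 named in the submitters' processing notes, which also name Seurat 4.0.6. The 9 genes, the gene lists and the tests were chosen with earlier results of these data known.

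Barcodes under 200 genes or above 15% mitochondrial UMIs were dropped, and Scrublet (assumed doublet rate 8%) removed 219 barcodes at 18 months and 478 at 2 months. Scanpy 1.11.5 clustered the cells on 2000 variable genes without the 9 genes and the 7 other lists, with 30 principal components, 15 neighbours and Leiden resolution 1. Limits for naming clusters from fixed markers, and for hashtag calls (at least 10 UMIs and 3 times the other hashtag), were set after the clusters were seen. A share of the cells carried no hashtag call: 2557 at 18 months and 6765 at 2 months.

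Counts were summed per class and library and given as CPM with exact Poisson intervals, log2 ratios with exact conditional binomial intervals, and shares with Clopper-Pearson intervals. A floor of 3 counts stood for a count of 0. Free RNA was estimated from genes of other lineages. The fold calls, the intervals and the free RNA estimate were run on simulated counts. Those counts had planted changes well above 1.5-fold and counting error only. Planted changes near 1.5-fold and variation between mice were not tried. The text names each of the 9 genes where it had at least 20 UMIs. From each list and myeloid class it draws on up to 3 genes per direction past 1.5-fold with at least 50 UMIs and an interval that leaves out 0. It also draws on the 3 genes most like each member, among genes with at least 500 UMIs. The genes under other observations were picked by hand, without this rule. The alternatives were other cell filters, doublets kept, resolutions 0.5 and 2, classes by markers without clusters, TMM scaling (edgeR 4.0.16), thinning, free RNA subtracted, single hashtags and cells split by Xist and Y-linked UMIs. The lymph node library entered no comparison.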

Additional observations from a re-analysis of the deposited data

Results flagged for a closer look

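Il1b went in opposite directions in macrophages (log2 ratio, 18 over 2 months, 0.71) and dendritic cells (-1.68). The same held for Il1rn, at 1.79 in macrophages and -2.14 in dendritic cells. Neither difference between the classes was tested, since each age has 1 library. At 2 months hashtags 09 and 10 held 109 and 412 macrophages, and 207 and 86 dendritic cells. Against hashtag 10 alone the Il1b ratio was above 0 in both classes. Macrophages had 794 CPM in hashtag 10, next to 1362 and 1544 CPM in hashtags 11 and 12. In dendritic cells Il1rn had 5.19 CPM in hashtag 10 from 6 UMIs, next to 3.48 and 4.36 CPM in hashtags 11 and 12. The part of the hashtag mix was not tested.

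The lymph node library, which entered no comparison, held 12908 cells and 46517926 UMIs. All 9 genes stood above its floor of 0.0645 CPM. Tnf had 42.4 CPM, Il1r2 31.3 CPM, Il18 5.61 CPM, Il1b 3.27 CPM, Il10 2.52 CPM and Il1rn 2.49 CPM. The lowest were Nlrp3 at 0.752 CPM, Il1a at 0.451 CPM and Il6 at 0.172 CPM.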

How the results depend on the processing

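No paired analysis was possible because each age has 1 library. The 9 genes gave 795 alternative values over 74 results: 535 stayed within their interval of counting error, 237 moved and 23 changed sign. Only ratios past 1.5-fold could be counted as changing sign. Other sign changes are among the values that stayed or moved. Nlrp3 in macrophages (-0.08), for example, was above 0 in 9 of 21 alternatives. Of the pairs of gene and myeloid class, 6 were higher and 8 lower. The lower count was 2 with at most 8% mitochondrial UMIs and 15000 UMIs per cell, where no cluster was named dendritic. It was 5 without the 5 richest cells, 5 in cells with Xist and no Y-linked UMIs, 4 for hashtag 11 and 3 for hashtag 12 against hashtag 10. The higher and lower counts were 1 and 1 after thinning to 1000 UMIs, 2 and 3 after thinning to 500 UMIs and 2 and 5 with a fold of 2. The causes were not tested; thinning leaves fewer UMIs and a higher fold fewer calls by construction.

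Among ratios past 1.5-fold, signs changed as follows. Il1a in monocytes was -0.33 with a stricter filter, -0.0082 at resolution 2, -2.72 with classes by markers, -0.73 as a mean of cells' CPM and -0.64 after thinning to 1000 UMIs. Nlrp3 in monocytes was 0.95 at resolution 0.5, 0.10 without the 5 richest cells and 0.53 in cells with Y-linked UMIs. In macrophages, Il1a was 0.63 and 0.13 for hashtags 11 and 12 against 10, Il6 was 1.34 for 12 against 10, and Tnf was -0.24 for 12 against 09. Il10 was -3.75 and -1.50 for 11 against 09 and 10, and -0.81 after thinning to 500 UMIs. In dendritic cells against hashtag 10, Il1b was 0.092 and 0.42 for hashtags 11 and 12, and for hashtag 12 Il1a was 1.48 and Nlrp3 0.14. Il6 in fibroblasts was 0.26 with the 15000 UMI filter, 0.30 in cells with Xist, 0.27 for 11 against 09 and 0.78 after thinning to 500 UMIs.

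Il1b and Il1rn in macrophages, Il1b in neutrophils, Il1rn and Il6 in dendritic cells and Tnf in T cells kept their sign in each alternative that gave a value. A kept sign does not mean a kept size. For Il1rn in dendritic cells the ratio ranged from -2.87 to -0.25. Against hashtag 10 it rested on 6 UMIs at 2 months, with 6 and 9 in hashtags 11 and 12. TMM scaling moved ratios by 0.29 in neutrophils, -0.28 in B cells, 0.16 in group 2 innate lymphoid cells and 0.93 in mast cells. Depth limits what the monocyte ratios can show, since the 2-month class had 46 cells and 2 Il1a UMIs.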

Other observations

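Receptors of these cytokines lay on different cells. The genes and classes named here were picked by hand and not by the fold rule. Among all genes measured in T cells 11.7% were called higher, and no such share is given for endothelial or endocardial cells. Tnfrsf1a, a receptor of tumour necrosis factor, had 423 CPM at 18 months and 405 CPM at 2 months in neutrophils, next to 161 and 175 CPM in vascular endothelial cells. Il6ra, the interleukin-6 receptor, had 241 and 199.7 CPM in monocytes and 29.8 and 24.3 CPM in fibroblasts, and Il10ra, a receptor chain of interleukin-10, had 162 and 157 CPM in macrophages and 46.3 and 22.7 CPM in T cells. Il1r1, the signalling receptor of interleukin-1, had 89.4 CPM at 18 months and 64.2 CPM at 2 months in fibroblasts, 56.8 and 49.6 CPM in vascular endothelial cells, and 91.1 and 107.8 CPM in pericytes. The log2 ratio was 0.48 (0.35 to 0.60) in fibroblasts and 0.20 (-0.02 to 0.41) in endothelial cells. Il18r1, a receptor chain of interleukin-18, stood at 173 CPM at 18 months and 108 CPM at 2 months in T cells (log2 ratio 0.68, 0.44 to 0.92). Il6st, the signalling chain shared by the interleukin-6 family, had 514 and 222 CPM in endocardial cells (log2 ratio 1.21, 0.98 to 1.45), next to 172 and 188 CPM in fibroblasts. Casp1, which cleaves interleukin-1β and interleukin-18, had 22.7 CPM at 18 months and 10.3 CPM at 2 months in endothelial cells (log2 ratio 1.14, 0.73 to 1.57), and 42.4 and 14.5 CPM in T cells (1.55, 0.95 to 2.19). In macrophages it had 66.8 and 68.6 CPM.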
